A study of Mus musculus with 6 samples.

Results

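Single-cell RNA sequencing of the testis was searched for spermatids that were starting to elongate, here called the members. A member was a barcode, the sequence that marks the RNA of 1 droplet, with at least 15000 unique molecular identifiers (UMIs, tags of single captured RNA molecules) of which 1% to under 10% came from Prm1, Prm2, Tnp1 and Tnp2. The members numbered 1123 of 48939 barcodes in the series (2.29%), 15.5% of the 7260 barcodes with at least 15000 UMIs, and held 10.3% of all UMIs. The libraries came from testes of 8-week-old C57BL/6 wildtype male mice (C57BL/6N in the study's methods), 3 labelled high-fat diet (HFD) and 3 labelled low-fat diet (LFD), each after 2 weeks on the diet. By the methods each diet had 3 mice, and the labels give no pooling. The testes were digested with collagenase, washed by sedimentation, treated with trypsin and filtered, steps that can deplete interstitial cells, and no sort is stated, so somatic cells could remain. The names carried by the deposited matrices give the opposite diet to the sample titles. The titles were followed, and under the other reading every diet difference below would change sign.

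After meiosis a haploid round spermatid builds an acrosome, then elongates its nucleus and grows a tail. During elongation histones are replaced first by transition proteins, encoded by Tnp1 and Tnp2, and then by protamines, encoded by Prm1 and Prm2, which pack the sperm DNA. Transcription is shut down as the nucleus condenses, and many mRNAs, those of the protamines among them, are made earlier and stored until they are translated. A rising share of transition protein and protamine mRNA is therefore widely used to order spermatids.

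The 4 genes were used to choose the members and their levels are a description. Among the members of a library they made up 3.64% to 4.79% of UMIs when pooled. In HFD replicate 1, Prm1 gave 30.9% of the 4-gene UMIs, Prm2 32.0%, Tnp1 14.7% and Tnp2 22.4%. In HFD replicate 2 the same genes gave 35.5%, 25.7%, 18.2% and 20.6%. Values on both sides of the limits were as follows. The 21 barcodes with a share of 0.9% to under 1% had 70.8 CPM (counts per 1000000 UMIs outside the 4 genes) of Fam71b, against 114 in the 22 barcodes at 1% to under 1.1%. At the upper limit, 41 members from 9% had 582 CPM and 38 barcodes from 10% to under 11% had 638 CPM. At the depth limit, 29 barcodes of 14000 to under 15000 UMIs had 39.8 CPM and 26 members of up to 16000 UMIs had 44.5 CPM, and 22 in each of these came from HFD replicate 2. A further 37567 barcodes had the same 4-gene share but fewer than 15000 UMIs, with a median of 2387, and were not members.

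**Figure D1:**
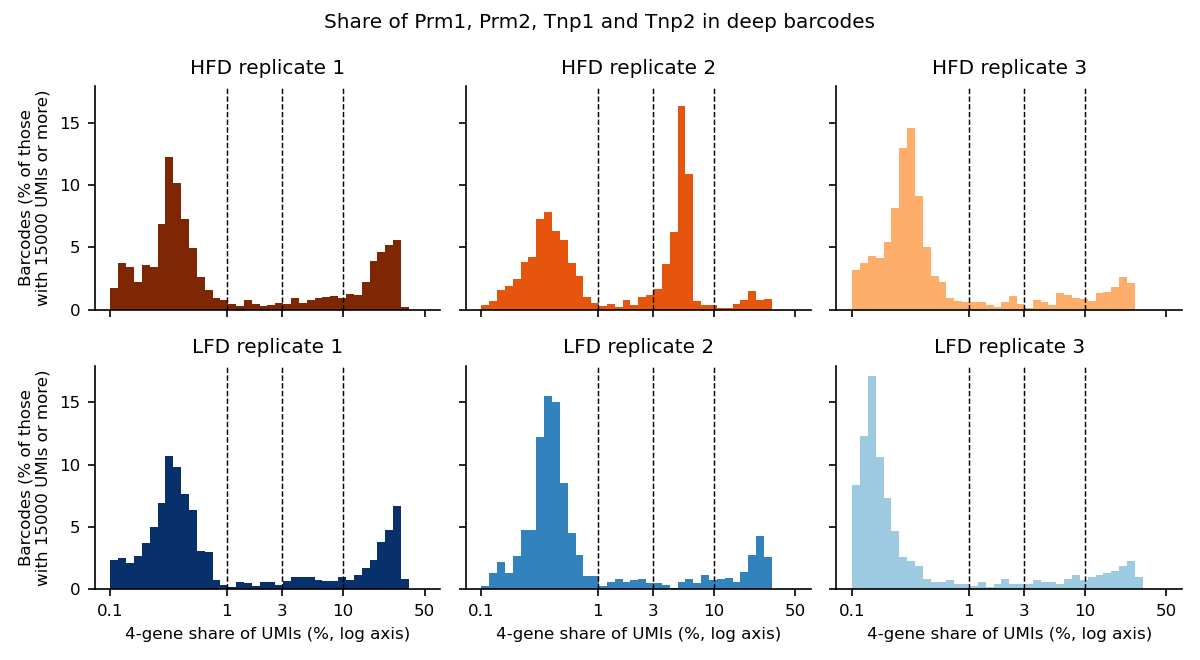
Histograms of the 4-gene share (x axis, percent of UMIs, log axis) in barcodes with at least 15000 UMIs, as a percent of those barcodes (y axis), in each library. Dashed lines stand at 1%, 3% and 10%, and shares under 0.1% are not drawn. HFD replicate 2 has a peak between 3% and 10% where the other libraries have a low, broad stretch.

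The members were spread unevenly over the libraries. HFD replicate 1 had 183, HFD replicate 2 had 562, HFD replicate 3 had 106, LFD replicate 1 had 140, LFD replicate 2 had 74 and LFD replicate 3 had 58. HFD replicate 2 thus held more members than the other 5 libraries together, and its members were 45.0% of its barcodes of this depth (exact 95% interval 42.2% to 47.8%), against 8.20% to 10.2% in the other 5 libraries. Intervals here cover counting error only. In HFD replicate 2, 77.4% of the members had a share of 4% to 7%, against 20.3% to 35% elsewhere, as the histograms of the share show. Its members had a median of 25650.5 UMIs, against 38313 to 41697.5 in the other libraries.

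Fam71b, a testis gene of the Fam71 family (also called Garin genes) and the one label marker that the rule did not use, was taken as the check of the name. Each barcode was thinned to 15000 UMIs, and a barcode with at least 2 Fam71b UMIs was counted. Outside HFD replicate 2, 416 of 561 members (74.2%) had them, with 68.9% in HFD replicate 1, 79.2% in HFD replicate 3, 73.6% in LFD replicate 1, 66.2% in LFD replicate 2 and 93.1% in LFD replicate 3. In HFD replicate 2 it was 110 of 562 (19.6%, exact 95% interval 16.4% to 23.1%), below every other library. Unthinned, 66.5% of its members had at least 1 Fam71b UMI, against 82.1% to 100% elsewhere. Of barcodes of the same depth on the meiotic side of the gate, which should lack the gene, 0% to 1.23% passed in the 6 libraries, at median depths of 30430 to 43178 UMIs. Of later round spermatids (defined below) 2.38% to 5.43% passed. Of barcodes of this depth over the upper share limit, 33.1% to 51.4% passed in the 6 libraries. A pass therefore cannot tell the start of elongation from a later stage, and it comes from the same counts as the rule. In 5 libraries the check set most members apart from the meiotic side and from later round spermatids only. Most members of HFD replicate 2 did not pass it.

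The members of HFD replicate 2 at 3% and over also stood apart in other markers. Summed over 7 early round spermatid markers (the Ssxb genes and Tbpl1), they had 740 CPM, against 164 to 240 CPM in the other libraries. Summed over 9 markers of meiotic division they had 670 CPM, against 127 to 254 CPM. Over all members the meiotic division sum was 650 CPM there and 568 CPM in LFD replicate 2, and in the lower band HFD replicate 2 (571 CPM) was below LFD replicate 2 (756 CPM). Nearly all of the early round spermatid sum at 3% and over came from Tbpl1, which encodes a TBP-like factor needed for spermiogenesis. It was at 164 to 233 CPM in the other libraries and at 717 CPM in HFD replicate 2. Barcodes with under 3000 UMIs in that library had a 4-gene share of 4.18%, beside 5.20% in its members of 3% and over, with Prm1 at 38.3% and 35.7% of the 4-gene UMIs, Prm2 at 28.4% and 25.8%, Tnp1 at 16.7% and 18.0% and Tnp2 at 16.7% and 20.5%. In the other libraries barcodes with under 3000 UMIs had a share of 2.44% (LFD replicate 3) to 4.83% (LFD replicate 1). HFD replicate 1 (4.65%) was above HFD replicate 2 as well. The part of such RNA in the members of HFD replicate 2 was not tested. Of 5544 genes, 25 were over 2-fold above and 140 over 2-fold below the range of all other libraries in the members of HFD replicate 2, and 289 were below it in LFD replicate 3, whose members held the fewest UMIs. The comparisons that follow were also run without HFD replicate 2.

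**Figure D2:**
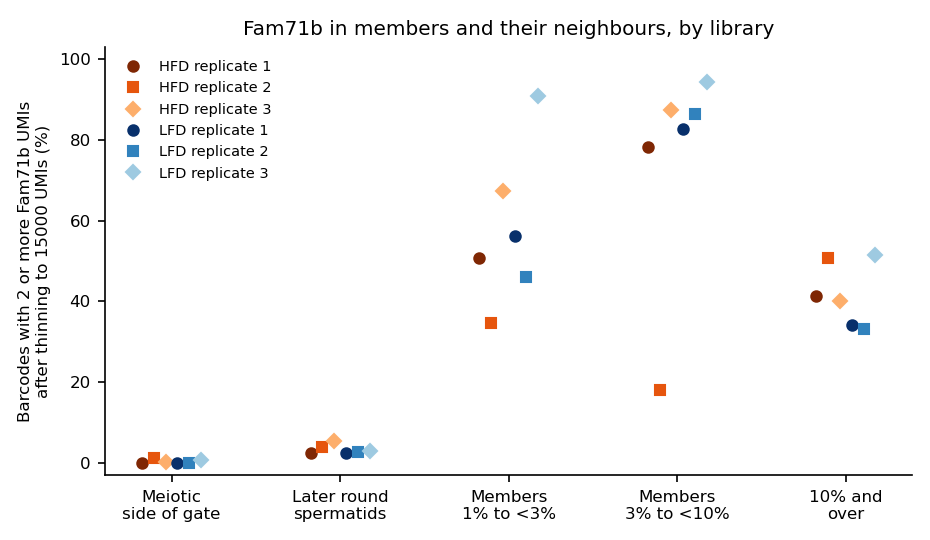
Percent of barcodes with at least 2 Fam71b UMIs after thinning to 15000 UMIs (y axis) in deep barcodes of the meiotic side of the gate, later round spermatids, members of 1% to under 3%, members of 3% to under 10% and barcodes of 10% and over (x axis). Each point is 1 library. Members of 3% and over reach 78.3% to 94.4% in 5 libraries and 17.9% in HFD replicate 2.

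Some members carried RNA of another cell type. Sertoli cells, the somatic nurse cells of the tubule, were followed by 10 markers (Clu, Defb19, Cst12, Sox9, Wt1, Amhr2, Rhox5, Aard, Tsx and Rhox8), all of which were detected in the members. Their summed level in the members was 1067 CPM in HFD replicate 1, 56.7 in HFD replicate 2, 187 in HFD replicate 3, 1258 in LFD replicate 1, 807 in LFD replicate 2 and 7.15 in LFD replicate 3. In later round spermatids it was 10.7 to 118 CPM and in barcodes of 10% and over 5.69 to 103 CPM. The HFD libraries (56.7 to 1067) and the LFD libraries (7.15 to 1258) overlapped. Most of the signal lay in the 124 members (11%) with at least 0.5% mitochondrially encoded mRNA, which had 3497 CPM against 102 CPM in the other 999. Of the 124, 18.5% passed the Fam71b check and 39.5% had more spermatid than meiotic gate UMIs, against 50.4% and 98.5% of the others. Without HFD replicate 2 the Fam71b check was passed by 21.4% and 85.3%. Any Sertoli UMI was seen in 58.9% of the 124 and in 44.5% of the others. In LFD replicate 2 members under 0.5% still had 663 CPM. In HFD replicate 2 members of 0.5% and over had 30.0 CPM, below the 58.5 CPM of its other members. Leydig cell markers summed to 94.7 CPM in LFD replicate 2 and to at most 8.81 CPM in the members of the other libraries. No blood cell marker passed the filter on low counts in any comparison. Scrublet scores marked 65 members (5.79%) against 6.86% of all barcodes. Barcode sequences were shared between libraries in 284 cases, among them 17 members (1.51%), with no sequence held by members of more than 1 library.

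**Figure D3:**
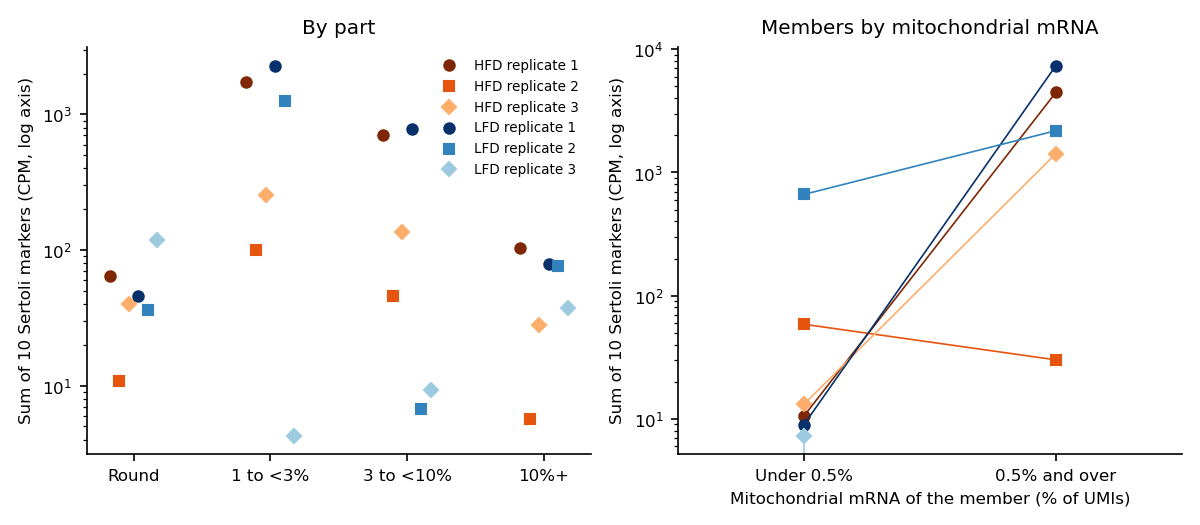
Summed CPM of 10 Sertoli markers (y axes, log scale), one point per library. On the left, later round spermatids, members of 1% to under 3%, members of 3% to under 10% and barcodes of 10% and over; on the right, members under and from 0.5% mitochondrial mRNA, where the single LFD replicate 3 member from 0.5% had 0 Sertoli UMIs and is not drawn. In 4 libraries the members from 0.5% sit higher.

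Promoter sequence is shown for 4 genes that rose in the members, because the transcription factor CREM and its sites are a known part of the spermatid programme. Of the genes highest against round spermatids, 7 of 8 had a promoter in the RefSeq table (GRCm38.p6), and of the Fam71 family 6 of 7. The 250 bases before the start were searched on both strands for the full cAMP response element TGACGTCA, its core TGACG and the TATA motif TATAAA. The full element holds the core on each strand, so every match to it is also a match to the core. All matches are in capitals, and the last base is the one before the RefSeq start. That start can differ from the GENCODE gene span, and the Fam71b window lies inside the span given for Fam71b below, while those of Actrt3 and Fam71e1 overlap the beginning of theirs.
Fam71a (chr1:191164818-191165067, minus strand): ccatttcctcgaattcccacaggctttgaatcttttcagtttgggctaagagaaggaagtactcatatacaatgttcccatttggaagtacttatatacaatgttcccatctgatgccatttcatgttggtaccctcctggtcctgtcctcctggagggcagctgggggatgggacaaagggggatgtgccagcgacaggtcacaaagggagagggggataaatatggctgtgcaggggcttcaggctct
Fam71b (chr11:46404478-46404727, plus strand): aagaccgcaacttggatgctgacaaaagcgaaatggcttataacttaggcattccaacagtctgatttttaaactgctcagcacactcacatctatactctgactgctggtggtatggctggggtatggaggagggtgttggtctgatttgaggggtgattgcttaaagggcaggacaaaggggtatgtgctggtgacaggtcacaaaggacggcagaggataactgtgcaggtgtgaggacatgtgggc
Fam71e1 (chr7:44496345-44496594, plus strand): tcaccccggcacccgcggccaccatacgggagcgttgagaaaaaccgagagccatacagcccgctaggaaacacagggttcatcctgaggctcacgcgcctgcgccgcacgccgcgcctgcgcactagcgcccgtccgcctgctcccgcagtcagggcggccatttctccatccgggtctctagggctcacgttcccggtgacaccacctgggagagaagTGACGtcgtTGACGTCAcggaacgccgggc
Actrt3 (chr3:30599871-30600120, minus strand): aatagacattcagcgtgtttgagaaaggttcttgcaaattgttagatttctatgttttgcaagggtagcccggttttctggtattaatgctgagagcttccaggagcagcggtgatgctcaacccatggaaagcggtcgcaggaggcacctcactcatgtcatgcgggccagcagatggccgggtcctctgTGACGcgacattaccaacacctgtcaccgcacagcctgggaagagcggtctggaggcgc
Fam71e1 held the full element, beginning 21 bases before the start, with a further core match at 30 bases, and the full element was in 1.55% of all 32851 promoters in the table. Actrt3 held the core 59 bases before the start, as did 17.8% of all promoters. No match lay in the windows of Fam71a and Fam71b, which says only that these letters are not there. Of the 6 Fam71 promoters Fam71e1 alone held the full element or the core, and 0 of the 4 promoters of Prm1, Prm2, Tnp1 and Tnp2 did. Only exact matches were counted. Near matches to the full element, such as TGACTTCA in the Prm1 window and TGATGTCA in the Tnp1 window, were not. Any link between these sites and the levels was not tested. Of the promoters of the genes named highest and lowest against round spermatids, 1 of 7 and 1 of 8 held the core. TATAAA was in 1 of 7 and 0 of 8 of these, and in 12.4% of all promoters.

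To see how other genes varied along the share, the 855 members of 3% to under 10% (upper band) were compared with the 268 of 1% to under 3% (lower band) within each library. Barcodes were sorted on the 4 genes, so genes that accompany these had to differ, and an adjusted p here says that a difference was large against its spread over 6 libraries. Of 12531 genes tested, 992 were higher in the upper band (7.92%) and 416 lower (3.32%) at an adjusted p under 0.05 (edgeR, library as a block). The median change of all genes was a log2 of -0.13. The count of lower genes rested on single libraries and was 73 without LFD replicate 1, 104 without HFD replicate 1, 110 without HFD replicate 3 and 146 without LFD replicate 3, while the higher genes then numbered 553 to 851. Scaled by column totals alone, 49.8% of calls were higher, against 70.5% here, and the median was -0.25.

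The named genes had to differ in the same direction in every library and to reach a mean of 100 CPM in the higher band. Col20a1, a collagen gene (chr2:180986535-181018363), was at 20.7, 31.6 and 24.4 CPM in the lower band of HFD replicates 1 to 3 and at 25.6, 34.2 and 18.2 in LFD replicates 1 to 3. In the upper band it was at 140, 100 and 155 CPM in the HFD and at 103, 148 and 133 CPM in the LFD libraries. The bands did not overlap, and the log2 difference was 2.44 ± 0.18 (SE, n = 6 libraries, edgeR adjusted p = 2.10e-05). Klk1b8, a kallikrein-related peptidase gene, rose by 2.27 ± 0.16 on this scale, and Prss58, a serine protease gene, by 2.05 ± 0.20. Nudt16l2 (1.96), Cstl1 of the cystatin family (1.86), the antisense RNA 1700029B22Rik (1.84), Agpat2, an enzyme of phospholipid synthesis (1.82) and Car2, a carbonic anhydrase (1.80), made up the rest of the 8 highest by the rule. The kit marks strand, but how an antisense RNA and its partner were split by the authors' counting was not examined. All 8 stayed past the threshold in the 16 other settings.

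Of the 8 lowest, Cst9 (-1.83) and Clu (-1.81) are expressed in Sertoli cells, and neither held without the members of 0.5% mitochondrial mRNA and over. The others were the noncoding RNA Gm20268 (-1.57), Lrrc34 (-1.43), the organic anion transporter gene Slco6c1 (-1.31), the phosphodiesterase Pde4a (-1.25), the splicing regulator Nsrp1 (-1.11) and Hdgfl1 (-0.93). Lrrc34, a leucine-rich repeat gene, was at 301 to 424 CPM in the lower band and at 66.5 to 240 CPM in the upper band, so that the bands did not overlap. The Sertoli list fell in 5 of 10 members, which became 0 of 4 tested when members of 0.5% mitochondrial mRNA and over were left out. Its summed level was 1735, 101 and 253 CPM in the lower band of HFD replicates 1 to 3 and 2295, 1262 and 4.28 in the LFD libraries. In the upper band it was 699, 45.7 and 135 CPM and 777, 6.74 and 9.21 CPM, lower in 5 libraries and higher in LFD replicate 3.

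Of the Fam71 family 5 of 7 rose in the upper band and 2 did not pass. Fam71a was at 131, 73.2 and 172 CPM in the lower band of HFD replicates 1 to 3 and at 105, 77.1 and 178 CPM in LFD replicates 1 to 3. In the upper band it was at 303, 94.6 and 426 CPM in the HFD and at 278, 381 and 378 CPM in the LFD libraries. It was higher in the upper band of each library, least so in HFD replicate 2, with a log2 difference of 1.39 ± 0.21 (adjusted p = 0.00104). Fam71b rose by 1.26 ± 0.23, Fam71f2 by 0.84, Fam71f1 by 0.79 and Fam71e1 by 0.50. In HFD replicate 2 Fam71b (108 CPM in the lower and 107 in the upper band) and Fam71f1 (187 and 184 CPM) did not rise. Fam71d (0.46, adjusted p = 0.142) and Fam71e2 (0.37, adjusted p = 0.245) were not called. Without HFD replicate 2, 6 of 7 were called higher, and with column totals alone 4.

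Between the bands 7.92% of all genes were higher and 3.32% lower, and the next lists are set beside these shares. Of the chaperone list 4 of 13 rose, Calr3 (0.82), Hspa1l (0.75), Dnajb8 (0.70) and Dnajb3 (0.35), and 2 fell, Hspa2 (-0.61) and Hsp90aa1 (-0.43). Calr3 did not rise in HFD replicate 2, with 117 CPM in the lower and 103 CPM in the upper band. Of the 6 testis-specific serine kinases Tssk6 and Tssk3 (0.73) rose. Of 18 spermatid chromatin genes 3 rose and 1 fell. Tssk6, a kinase that acts on histones in spermatids and is needed for nuclear condensation, rose by 1.00 ± 0.13 (adjusted p = 0.000466), the linker histone H1fnt by 0.63 and Hmgb4 by 0.59. Hmgb4 did not rise in HFD replicate 2, with 1307.5 CPM in the lower and 1180 CPM in the upper band. Hspa2, the chaperone that takes up transition proteins in spermatids and is also on this list, was the gene that fell. Of 31 sperm tail genes 5 rose, among them Tppp2 (0.92), Spata18 (0.73) and Smcp of the mitochondrial capsule (0.53), and 2 fell, Fsip2 of the fibrous sheath (-0.90) and Spag6 of the axoneme (-0.79). Spem1, needed for the head to take its form, was the 1 manchette gene of 23 tested to rise (0.92 ± 0.16). Of 19 genes of mRNA storage 3 fell, Tdrd7 (-0.89), Pabpc2 (-0.58) and Ddx4 (-0.55), and none rose. Of the acrosome list, Spam1 (-1.22) and Zpbp2 (-0.56) fell and 21 of 23 were not called. The 15 transcription regulators, 13 mitochondrially encoded mRNAs, 12 spermatocyte and 9 meiotic division markers had no call.

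**Figure D4:**
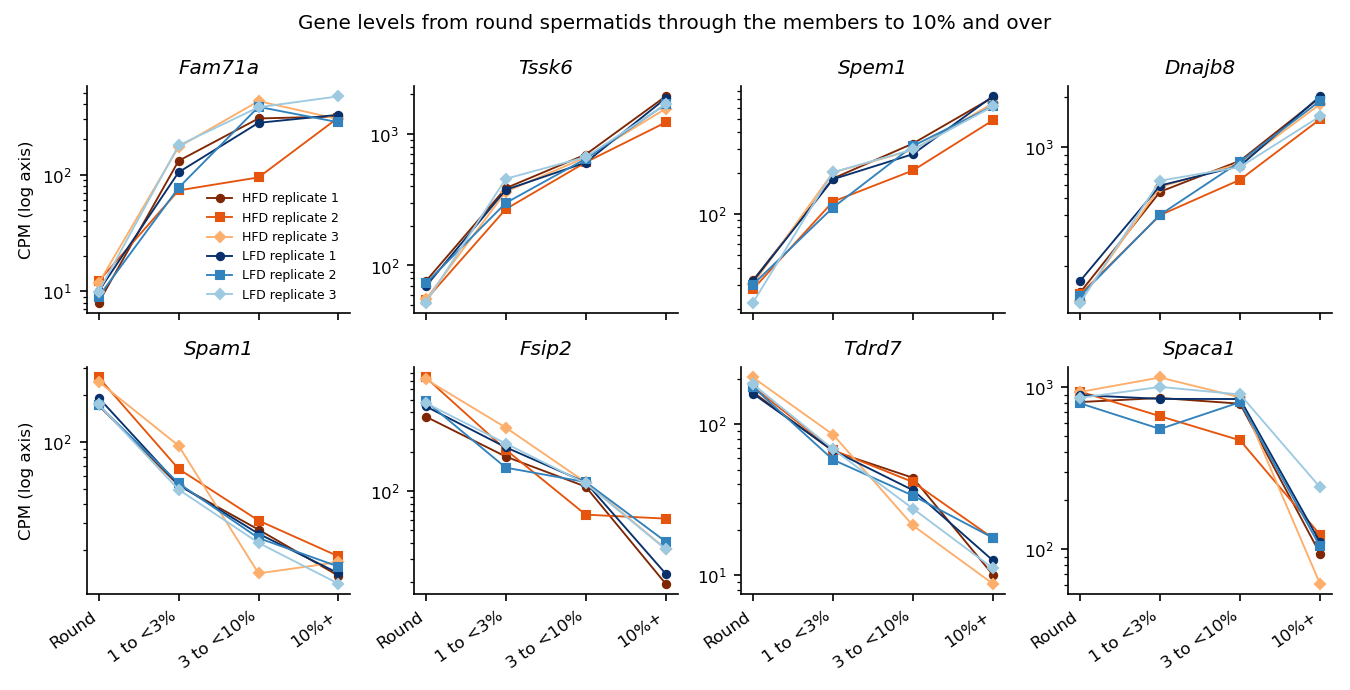
CPM (y axes, log scale) of 8 listed genes chosen after their values were seen, in later round spermatids, members of 1% to under 3%, members of 3% to under 10% and barcodes of 10% and over (x axis), one line per library. Fam71a, Tssk6, Spem1 and Dnajb8 climb from round spermatids to the upper band, Spam1, Fsip2 and Tdrd7 descend, and Spaca1 falls steeply past 10%.

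The members were next compared with the stage before them. Later round spermatids were barcodes of at least 15000 UMIs and a share under 1% in which the sum of Acrv1, Spaca1, Spaca3 and Lyzl1 was above that of 6 meiotic genes. They numbered 2920, from 302 to 744 in a library, and the gate genes were left out of the test. The members were not put through this gate, and 90 of them did not pass it. Of 17393 genes, 5366 were higher in the members (30.9%) and 4517 lower (26.0%), and the median change of all genes was 0.01. Without HFD replicate 2 the counts were 5606 and 5027. The balance turned among members under 0.5% mitochondrial mRNA (3575 higher, 4812 lower, median -0.24) and among members with 2 Fam71b UMIs (4725 higher, 5643 lower). In both settings the limit was put on the members alone, and the round spermatids were not filtered.

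The 8 genes that were highest in the members by the rule were 1700016C15Rik, Prss52, Trp53tg5, Actrt3, Gm136, Fam71b, Fam71a and the noncoding RNA 4930417H01Rik, with log2 differences of 4.38 to 4.78. 1700016C15Rik (chr1:177729814-177753324) was at 8.74, 10.3 and 13.7 CPM in round spermatids of HFD replicates 1 to 3 and at 10.3, 10.6 and 7.12 CPM in LFD replicates 1 to 3. Among the members it was at 286, 171 and 429 CPM in the HFD and at 282, 210 and 326 CPM in the LFD libraries. HFD replicate 2 was the lowest, yet above every round spermatid value, and the log2 difference was 4.78 ± 0.24 (adjusted p = 1.64e-07). Actrt3, an actin-related protein gene of the sperm head, went from 4.12 to 7.95 CPM in round spermatids to 76.9 to 193 CPM in the members. Its promoter is the fourth sequence printed above. All 8 held in 16 of 16 other settings. The setting of members with 2 Fam71b UMIs chose the members by Fam71b, so the call of Fam71b there was fixed in advance.

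All 7 genes of the Fam71 family were higher in the members, in this and in each of the scalings tried. Fam71b (chr11:46396559-46407982) was at 9.37, 13.4 and 16.0 CPM in round spermatids of HFD replicates 1 to 3 and at 11, 10.3 and 10.6 CPM in LFD replicates 1 to 3. The members had 269, 107 and 408 CPM in the HFD and 264, 214 and 342 CPM in the LFD libraries. No library of members overlapped the round spermatids, and the log2 difference was 4.44 ± 0.27 (adjusted p = 2.45e-07). Fam71a, at chr1:191162584-191164817, rose by 4.41 ± 0.28 and Fam71f2 by 2.52 ± 0.20. Fam71f1 (1.59), Fam71e1 (0.96), Fam71d (0.83) and Fam71e2 (0.66) rose less. Fam71e1 was at 655 to 819 CPM in round spermatids and at 925 to 1933 CPM in the members, with no overlap. Its promoter is the third sequence printed above, and any link between the sites in these promoters and the levels was not tested.

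The chromatin list moved both ways, with 9 of 18 genes higher and 5 lower, beside 30.9% of all genes higher and 26.0% lower. Tssk6 was at 75.9, 54.8 and 55.2 CPM in round spermatids of HFD replicates 1 to 3 and at 69.4, 73.1 and 52.3 CPM in LFD replicates 1 to 3. In the members it was at 587, 541 and 530 CPM and at 533, 425 and 579 CPM. It rose by 3.09 ± 0.19 (adjusted p = 2.74e-07), and here HFD replicate 2 lay within the range of the other libraries. Hist1h2ba, the testis H2B gene, rose by 3.52, H1fnt by 1.98 ± 0.19, Cdyl by 1.67, Hmgb4 by 1.5, Prm3 by 1.14 and Hils1, a spermatid linker histone, by 0.73. Hist1h2ba was low and uneven over the libraries, at 0 to 21.8 CPM in the lower and 1.54 to 12.6 CPM in the upper band. The histone H3.3 gene H3f3b rose by 0.60 and Rnf8, a ligase of histone ubiquitination, by 0.83, though Rnf8 changed sign when only members that pass the gate, or only those under 0.5% mitochondrial mRNA, were used. Brdt (-0.71), Kdm3a (-0.92), Psme4 (-0.74), Epc1 (-0.37) and Hspa2 (-0.69) fell.

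Genes of head shaping and tail building moved both ways, beside 30.9% of all genes higher and 26.0% lower. Of 24 manchette genes 5 rose, Spem1 (3.00 ± 0.19), Ccin, which encodes calicin (2.15), Hook1 (1.16), Sun3 (1.14) and Spag4 (0.65), and 11 fell, among them Lrguk (-1.54), Ccdc42 (-1.27), Iqcg (-1.13) and Ift88 (-1.06). Spem1 went from 22.5 to 32.7 CPM in round spermatids to 185 to 276.5 CPM in the members, with no overlap. Of 31 tail genes 11 rose and 11 fell. Tppp2 (2.73), Tekt5 (2.35), Spata18 (1.96), Akap4 of the fibrous sheath (0.94) and Smcp (0.94) rose, while Fsip2 (-1.85), Spag6 (-1.33), Cfap44 (-1.29) and the calcium channel gene Catsper2 (-1.16) fell.

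Of 19 acrosome genes tested 5 rose, Actl9 (1.74), Capza3 (0.67), Cylc1 (0.59), Spaca4 (0.47) and Actl7a (0.45), and 7 fell, beside 30.9% of all genes higher and 26.0% lower. Spam1, the hyaluronidase of the sperm surface, was at 172, 261 and 245 CPM in round spermatids of HFD replicates 1 to 3 and at 193, 173 and 175 CPM in LFD replicates 1 to 3. In the members it was at 36.1, 38.2 and 49.9 CPM and at 34.2, 43.1 and 33.5 CPM, below every round spermatid value, a log2 difference of -2.36 ± 0.15 (adjusted p = 3.00e-07). Dpy19l2 (-1.72), Zpbp2 (-1.35) and Zpbp (-0.61) fell with it. Of 18 storage genes 3 rose and 12 fell. Tdrd7, a component of the chromatoid body, fell by 1.86 ± 0.13, Pabpc6 by 1.36, Pabpc2 by 1.16 and Ddx4 by 1.05, whereas Dazl (1.51), Paip2b (1.42) and Paip2 (0.48) rose. Dazl was uneven over the libraries, at 11.8 to 103 CPM in the lower and 11.5 to 114 CPM in the upper band.

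Of 15 transcription regulators 2 rose, Fhl5 (1.43), a coactivator of CREM, and Sox30 (0.61). Another 7 fell, among them Tbpl1 (-1.35), Taf7l (-1.05) and Crem itself (-0.46 ± 0.14, adjusted p = 0.0123). Over all genes 30.9% were higher and 26.0% lower. Crem was at 589 to 660 CPM in round spermatids and at 408 to 494 CPM in the members, which did not overlap. Smco4 (-2.93), Lrriq1 (-2.80), the serine protease Prss46 (-2.41), Tex15 (-2.40), Gm5458, Fam228b and the noncoding 1700041C23Rik were, with Spam1, the 8 lowest by the rule.

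The smaller lists are set beside 30.9% of all genes higher and 26.0% lower. Tssk3 and Tssk2 rose with Tssk6 while Tssk5 (-2.61) and Tssk4 (-0.43) fell. Chaperone genes gave 4 higher, Calr3 (2.81), Dnajb8 (2.32), Hspa1l (1.78) and Dnajb3 (0.46), and 4 lower, among them Hsp90aa1 (-0.94) and Clgn (-0.98). Dnajb8 was at 121 to 162 CPM in round spermatids and at 553 to 732 CPM in the members. Of the ubiquitin list 6 rose, led by Ubqlnl (3.26), Rnf133 (1.88) and Rnf148 (1.57), and 4 fell. Of the glycolysis isozymes Gapdhs, the sperm form of GAPDH, rose by 1.16 ± 0.16 and 4 of 13 fell. Of the testis forms of mitochondrial proteins Spata19 rose (0.89) and 5 of 10 fell. All 6 early round spermatid markers tested fell and 5 of 8 meiotic division markers fell, with none higher.

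Sertoli markers rose in 10 of 10, by a median log2 of 2.91, and in 0 of 9 tested without the members of 0.5% mitochondrial mRNA and over. In this paragraph that limit was put on the members alone, and the round spermatids were not filtered. Over all genes 30.9% were higher and 26.0% lower, and without those members 3575 were higher and 4812 lower of 16620. Fatty acid oxidation genes gave 7 higher and 4 lower of 16, but 1 higher and 6 lower of 15 without those members. The balance of all genes turned in the same direction. Among germ cell markers Tex101 (2.14) and Dmc1 (3.13) rose and Mns1 (-1.15) and Spo11 (-1.09) fell. Dmc1 was at 1.21 to 4.99 CPM in the members. Spermatogonial markers gave 2 higher of 8. In the peritubular, macrophage and endothelial lists 1 gene each was higher, and 1 endothelial gene was lower. The macrophage gene was C1qb (3.27), while C1qa, C1qc, Lyz2 and Csf1r were too low to test. None of the 13 mitochondrially encoded mRNAs was called, and all 13 were lower once the members of 0.5% and over, which are defined by these genes, were left out.

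The stage after the members was taken as the 1157 barcodes with at least 15000 UMIs and a share of 10% or more. Of 13685 genes, 6336 were higher in the members (46.3%) and 3132 lower (22.9%). The median of all genes was a log2 of 0.52, and this shift depended on scaling, 0.29 with relative log expression factors and 1.01 with column totals alone. Of the calls 66.9% were higher in the members, against 81.6% with column totals alone and 52.9% with DESeq2. Differences below are on the first scale and a value near 0.52 is that of a typical gene. After thinning, members held a median of 3890 to 4007.5 genes per barcode in a library, against 4118 to 4231.5 in round spermatids and 2490 to 2879 in barcodes of 10% and over.

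Genes highest in the members over this stage were Stambpl1 (3.98), 1700001P01Rik (3.92), Prr27 (3.27), the endoplasmic reticulum protein gene Creld2 (3.19), Glipr1l1 (3.18), the noncoding Snhg8 (3.15), Ccdc105 (3.14) and the nucleosome-binding Hmgn1 (3.12). Stambpl1, a deubiquitinase gene, was at 112, 87.0 and 151 CPM in the members of HFD replicates 1 to 3 and at 138, 94.0 and 150 CPM in LFD replicates 1 to 3. Past 10% it was at 3.08 to 8.34 CPM, with no overlap, and the difference was 3.98 ± 0.23 (adjusted p = 7.30e-10). H3f3b was higher in the members by 3.01 ± 0.16, from 151 to 312 CPM past 10% to 1944 to 2992 CPM in the members.

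The lists here are set beside 46.3% of all genes higher in the members and 22.9% lower. The acrosome list was higher in the members for 16 of 23 genes and lower for 4. Spaca1, an acrosomal membrane protein gene, was at 816, 509 and 992 CPM in the members of HFD replicates 1 to 3 and at 846, 645 and 945 CPM in LFD replicates 1 to 3. Past 10% it was at 94.0, 123 and 61.2 CPM and at 111, 104 and 241 CPM, below every member value, a log2 difference of 2.30 ± 0.20 (adjusted p = 5.42e-08). Lyzl6 (2.16) and Zpbp2 (2.07) were higher too. Storage genes gave 11 higher and 3 lower of 19, with Elavl1 at 2.03. Transcription regulators gave 9 higher and 4 lower of 15, with Crem at 1.29 ± 0.12.

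Genes lowest in the members against this stage included Cby3 (-4.00), the noncoding 1700084D21Rik (-3.91), Cyp2a12 (-3.65), Apoe (-3.52) and Tmem189 (-3.35). The antisense RNAs Gm12970 and Gm4665 were among them. Cby3 was at 21.0 to 41.2 CPM in the members and at 264 to 370 CPM past 10%, with a difference of -4.00 ± 0.20 (adjusted p = 2.48e-10). Of the Fam71 family 6 of 7 were lower in the members in each scaling tried, Fam71f2 by 2.05 and Fam71b by 1.32, and Fam71e2 (-0.08) was not called. The plain CPM of Fam71b was 375 to 587 past 10% and 107 to 408 in the members, so the ranges overlapped. The thinned share of barcodes with 2 Fam71b UMIs was 33.1% to 51.4% past 10%, below that of the members in 5 libraries and above it in HFD replicate 2 (50.8% against 19.6%). The CPM was higher past 10% in all 6 libraries, so no order is read from that share. Tssk6 (-2.10), Smcp (-1.79), H1fnt (-1.80), Hmgb4 (-1.87), Spem1 (-1.91), Gapdhs (-1.91), Ubqlnl (-2.17) and Hspa1l (-2.20) were lower in the members than past 10%, after having been higher in them than in round spermatids. Sertoli markers were higher in the members for 10 of 10 genes, and for 0 of 7 tested without the members of 0.5% mitochondrial mRNA and over. The barcodes past 10% were not filtered in this way.

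The last comparison was that of the diets, which the study used to ask whether a short HFD exposure alters developing germ cells. Members were 1.84%, 6.92% and 1.43% of barcodes in HFD replicates 1 to 3 and 2.11%, 0.667% and 1.01% in LFD replicates 1 to 3. Only HFD replicate 2 lay above the LFD range. The means were 3.40% ± 3.05 and 1.26% ± 0.756 (SD, n = 3), a difference of 2.13 percentage points (exact permutation test, two-sided, p = 0.3, where 0.1 is the smallest possible). Without HFD replicate 2 the difference was 0.374 points (exact p = 0.6). Within replicate number 1 it was -0.270 points, and within numbers 2 and 3 it was 3.34 points. Of the barcodes of this depth, members were 21.6% ± 20.2 in HFD and 8.72% ± 0.620 in LFD (exact p = 0.1), in which all 3 HFD libraries were above all 3 LFD libraries, HFD replicate 1 by 9.57% against 9.41%. Without HFD replicate 2 that difference was 1.17 points, from 12.9 (exact p = 0.2, the smallest possible with these libraries). The remaining HFD libraries were still above all LFD libraries. Counting only members with 2 Fam71b UMIs, the means were 1.25% and 0.978% of all barcodes (exact p = 0.6).

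**Figure D5:**
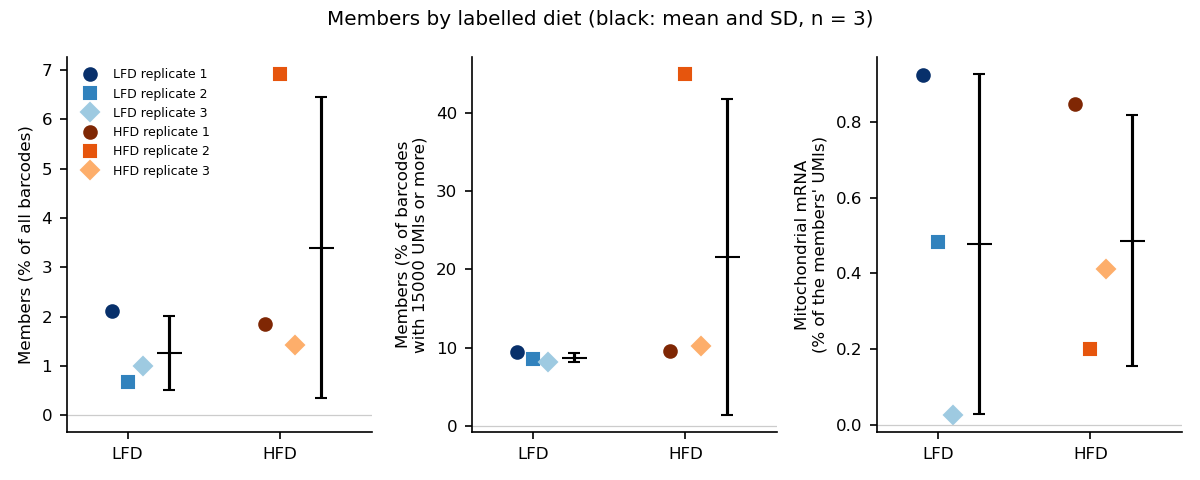
Members as a percent of all barcodes (left) and of barcodes with at least 15000 UMIs (middle), and mitochondrially encoded mRNA as a percent of the members' UMIs (right), by labelled diet (x axis). Points are libraries, and black marks are the mean and SD (n = 3). HFD replicate 2 stands far above the other libraries in the left and middle panels, and in the middle panel the other HFD libraries (9.57% and 10.2%) lie just above the highest LFD library (9.41%).

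No gene differed between the diets in the members (0 of 12914, 0.0%, edgeR), where adjusted p-values began at 1.00. Before adjustment 18 genes had a p under 0.05, far fewer than an even spread of p-values would give. With the replicate number as a block the numbers were 0 after and 982 before adjustment. With DESeq2 they were 0 after and 37 before. The groups did not overlap for 440 genes (3.41%). The 3 genes of smallest p were Gm13539 (1.4 ± 0.41), the antisense RNA Gm12970 (1.13 ± 0.36) and Acte1, an actin gene (0.69 ± 0.24). Acte1 was at 130, 159 and 158 CPM in HFD replicates 1 to 3 and at 112, 90.9 and 92.5 CPM in LFD replicates 1 to 3. The HFD libraries were all higher, but the adjusted p was 1.00. The label marker Fam71b differed by -0.02 ± 0.44. Tnp1 and Prm1 chose the members, and their diet difference is not read. Crem differed by 0.11 ± 0.22. None of the gene lists above had a call.

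Mitochondrially encoded mRNAs, whose levels across germ cell stages the study also examined, made up 0.849%, 0.199% and 0.412% of the members' UMIs in HFD replicates 1 to 3 and 0.924%, 0.484% and 0.0248% in LFD replicates 1 to 3. The diets overlapped, with means of 0.487% ± 0.331 and 0.478% ± 0.450 (SD, n = 3, exact p = 1). The difference was -0.0750 points within replicate number 1 and 0.0508 points within numbers 2 and 3. Members of 0.5% and over numbered 43, 26 and 15 in the HFD and 29, 10 and 1 in the LFD libraries, and the 2 libraries with the most had the highest shares. Among the other members the median was 0.00605% to 0.0450% in a library.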

How the data were processed

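Testis libraries were made with a 3′ kit (version 2 in the labels, v3.1 in the methods). Per the labels and methods, the authors aligned reads to mm10 with Cell Ranger 6.0.1, whose cell calling chose the barcodes, and deposited raw UMI counts per gene and barcode, 32285 genes in 6 libraries of 39196921 to 95845514 UMIs.

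Barcodes were chosen by total UMIs and the 4-gene share, and counts were summed per library, the replicate. Sums were tested with edgeR 4.0.16 in R 4.3.3 (quasi-likelihood, TMM, default filter, Benjamini-Hochberg over all genes tested, adjusted p under 0.05, two-sided), diets without a block and stages with the library as a block, leaving out the genes that chose the barcodes. Each library had at least 20 barcodes in both parts. The alternatives on Fam71b and on mitochondrial mRNA filtered the members alone, not the stages beside them, and kept the genes they filtered on in the test. SEs come from the F value. DESeq2 1.42.0, scalings, filters, depth and share limits, Scrublet (scanpy 1.11.5) and left-out libraries were alternatives, and the fits were tested on simulated counts. Library shares were tested by exact permutation over the samples. Doublets were kept, as no removal is stated. Coordinates come from GENCODE vM21 (GRCm38), promoters from RefSeq (GRCm38.p6).

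Same-numbered HFD and LFD libraries deviated together (Pearson r of deviations from diet means over 5900 genes 0.516, 0.709 and 0.705). Differently numbered libraries had r of -0.817 to 0.0326. The deviations of a diet cancel out, so these values are not independent and cannot settle whether the replicate number pairs the samples. No label states a shared batch.

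Named genes were up to 8 highest and 8 lowest calls per stage comparison with the same direction in every library and a mean of at least 100 CPM in the higher part, for the diets the 3 smallest p with no call, and any gene of the lists. One of them is not reported here. The members and lists were chosen with earlier results of these data known.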

Additional observations from a re-analysis of the deposited data

How the results depend on the processing

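For the upper against the lower band, 1408 genes were called. The count was 681 with no library block, 2419 among members that pass the spermatid gate and 2915 among members with 2 Fam71b UMIs after thinning (4 libraries, an alternative chosen after seeing the data, like that on mitochondrial mRNA). Leaving out a library gave 657 to 1772 calls, with 657, 817 and 818 when HFD replicate 1, LFD replicate 1 or LFD replicate 3 was dropped. The cause was not tested. The other two stage counts stayed within 1.5 times under all alternatives run, and of 837 values of the genes named as highest, lowest or of smallest p 27 lost their call, all in the bands, and 0 changed direction, which does not cover the other list genes (Rnf8 and others did). The diet comparison gave 0 genes under all alternatives run, the replicate block included (0, with 982 at an unadjusted p under 0.05 against 18), with and without GC correction, and the block changed no other call. With the block the difference in members by diet was 2.13 points (exact p = 0.5 by sign flips over 3 pairs, a test that cannot reach 0.05).

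The diet difference in mitochondrial mRNA, 0.00887 points, turned to -0.0292 without the highest Scrublet scores, -0.113 from a share of 2%, -0.0130 in members under 0.5%, -0.0640 with 2 Fam71b UMIs and -0.210 as a mean over barcodes (-0.0173 without HFD replicate 2, added after seeing the data), and ranged from -0.218 to 0.232 when a library was left out. The exact p was 0.4 or more in each of these. With 3 libraries per diet, and 58 members in the smallest, small diet differences could not be seen.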
